A study of Mus musculus with 12 samples.

Results

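The costimulatory receptors and ligands described here are 9 of the 26608 genes listed in the count tables, taken by symbol: *Icos*, *Cd28*, *Cd226*, *Tnfrsf4*, *Tnfrsf9*, *Tnfrsf18*, *Cd27*, *Cd40lg* and *Tnfsf8*. All 9 were counted in every library and were among the 16035 genes tested. CD28 and ICOS are receptors of the immunoglobulin family that add a second signal to that of the T cell receptor, chiefly through phosphoinositide 3-kinase. CD28 acts on resting T cells, and ICOS appears on activated T cells and is needed for T follicular helper (Tfh) cells. OX40 (*Tnfrsf4*), *Tnfrsf9*, GITR (*Tnfrsf18*) and CD27 are TNF receptor family members that signal through TRAF adaptors toward NF-kappaB, and CD40 ligand and CD30 ligand (*Tnfsf8*) are TNF family ligands that T cells show to B cells and other partners.

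RNA was sequenced from CD4+ YFP(FOXP3)- T cells, that is, CD4+ T cells without the YFP reporter of FOXP3, sorted from the spleen pooled with lymph nodes (inguinal and cervical) of mice aged 14 weeks. There were 4 libraries from Foxp3Cre WT mice (WT) and 8 from mice with the genotype Foxp3-Cre Tet2/3 fl/fl, which the authors divided into DKO-moderate (4 libraries) and DKO-severe (4 libraries) by how many leukocytes these organs held. All 3 groups carry the Foxp3-Cre, which acts in cells that express or have expressed *Foxp3* and is also known to be leaky, so the sorted DKO cells can mix former Treg cells with other T cells, and which of them had lost *Tet2* and *Tet3* was not measured here. The labels number the libraries of a group without saying whether each came from 1 mouse, so p-values measure the spread between these libraries. Because these are bulk samples, fewer cells of a type and less RNA per cell cannot be told apart.

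The gate was checked against T cell genes: *Cd3e* was counted at 353 CPM or more and *Cd4* at 864 CPM or more in every library, where CPM is the read count scaled to a common library size by the TMM method. Of the 8 T cell genes checked, *Thy1* (log2 fold change -1.4), *Cd247* (-1.2), *Cd5* (-1.1) and *Cd2* (-0.69) fell and *Cd3e* (0.29) rose in DKO-severe against WT, and the sum of all 8 ran from 4350 to 4850 CPM in WT from 4390 to 4950 CPM in DKO-moderate and from 3450 to 4070 CPM in DKO-severe. The part of this in the values of the members was not tested. Reads on genes ranged from 29254260 to 42133536 per library. DKO-severe 1 and DKO-severe 2 held 2250 and 828 CPM over 10 neutrophil genes, against 10.3 and 23.9 CPM in the other DKO-severe libraries and at most 8.58 CPM elsewhere. The 9 B cell genes summed to 216 CPM in WT 3 and to 84.6, 327, 52.2 and 136 CPM in DKO-severe 1 to 4, and to at most 6.9 CPM in the other libraries. The summed level of 4 Y-linked genes was at most 0.571 CPM in WT 2, DKO-moderate 2, DKO-moderate 4 and DKO-severe 3, and from 370 to 556 CPM in the other 8 libraries.

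TET2 and TET3 oxidize methylated cytosine, which in T cells sits mostly in CpG pairs, so the upstream sequences of the members are shown first with their CpG pairs. RefSeq promoter windows of 300 bases (250 before and 50 after a start site, build GRCm38.p6) were at hand for *Tnfrsf4*, *Tnfrsf9*, *Tnfrsf18*, *Tnfsf8* and *Cd27*. The lines give, 5′ to 3′ on the strand of the gene, the bases before the start site that no annotated UTR covers. Capitals mark CpG pairs and, in *Tnfrsf9*, 1 match to TGGAAA, the core letters bound by NFAT factors.

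*Tnfrsf4*, chr4:156013611-156013694, plus strand: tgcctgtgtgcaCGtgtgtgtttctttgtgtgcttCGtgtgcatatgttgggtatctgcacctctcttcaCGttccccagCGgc

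*Tnfrsf9*, chr4:150919905-150920154, plus strand: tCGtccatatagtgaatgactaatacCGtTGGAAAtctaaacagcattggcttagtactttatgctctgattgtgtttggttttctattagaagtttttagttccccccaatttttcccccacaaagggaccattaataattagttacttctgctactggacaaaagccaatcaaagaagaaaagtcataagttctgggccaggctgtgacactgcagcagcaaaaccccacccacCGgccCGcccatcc

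*Tnfsf8*, chr4:63861348-63861534, minus strand: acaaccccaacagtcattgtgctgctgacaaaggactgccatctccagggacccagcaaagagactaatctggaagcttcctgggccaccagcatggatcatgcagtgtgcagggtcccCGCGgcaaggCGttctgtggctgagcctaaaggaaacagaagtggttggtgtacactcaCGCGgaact

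*Cd27*, chr6:125237028-125237277, minus strand: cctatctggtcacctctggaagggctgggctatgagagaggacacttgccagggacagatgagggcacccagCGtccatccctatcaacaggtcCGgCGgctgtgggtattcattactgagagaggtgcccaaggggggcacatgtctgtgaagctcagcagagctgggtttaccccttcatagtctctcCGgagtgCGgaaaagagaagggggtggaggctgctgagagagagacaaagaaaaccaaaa

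The full windows held 4 CpG pairs in *Tnfrsf18* and in the first *Tnfrsf9* window, 6 in *Tnfrsf4*, 7 in *Cd27* and 9 in *Tnfsf8*, beside a median of 7 over all 32851 promoters in the reference. The share of all promoters with as few or fewer pairs was 38.0% at 4 pairs and 56.5% at 9 pairs. *Tnfrsf9* has a second listed start site downstream, with 6 pairs in its window and the AP-1 letters TGAGTCA at position -15 from that start. On both strands, TGANTCA was found in 7.81% of all promoters, TGGAAA in 21.4%, GTAAACA (the FOXO letters) in 3.65% and the NF-kappaB motif in 0.411%. Beside the matches in *Tnfrsf9*, the *Tnfrsf4* window held 1 TGGAAA match on the opposite strand. These are matches of letters in fixed windows, and no binding or methylation was measured in these libraries.

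Against WT, 6 of the 9 genes rose in DKO-severe and 1 fell, and 2 did not pass the test. *Tnfrsf4* rose most, 13.2-fold, followed by *Icos* (7.74-fold), *Tnfsf8* (6.10-fold), *Tnfrsf9* (5.35-fold), *Tnfrsf18* (2.41-fold) and *Cd28* (1.39-fold). *Cd27* fell to 56.8% of its WT mean, *Cd226* stood at 65.2% and *Cd40lg* at 112%. The test was edgeR's quasi-likelihood test over all tested genes with p-values adjusted by Benjamini-Hochberg and called under 0.05. It called 52.6% of all tested genes in this comparison, 26.6% as higher and 25.9% as lower, so the 7 calls among 9 stand against a high background. For 8 of the 9 genes the DKO-severe and WT libraries did not overlap, as for 51.9% of all tested genes. The median log2 fold change of the 9 was 1.27, and that of all tested genes was -0.01.

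In DKO-moderate the same 6 genes rose against WT and none of the 9 fell, with 17.1% of all tested genes called, 12.3% as higher and 4.74% as lower. The folds were 6.06 for *Tnfrsf4*, 4.53 for *Tnfsf8*, 4.05 for *Icos*, 3.53 for *Tnfrsf9*, 1.70 for *Tnfrsf18* and 1.33 for *Cd28*. The median log2 fold change of the 9 was 0.77, against 0.00 over all tested genes. For these 6 the DKO-moderate and WT libraries did not overlap, as for 24.8% of all tested genes. Both comparisons use the same 4 WT libraries, so they are not independent of each other. Between DKO-severe and DKO-moderate, *Icos* and *Tnfrsf4* passed as higher in DKO-severe and the other 7 did not pass, where 20.1% of all tested genes were called, 9.41% as higher and 10.7% as lower. The DKO libraries did not overlap for 1 of the 9 genes, and for 21.3% of all tested genes.

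**Figure D1:**
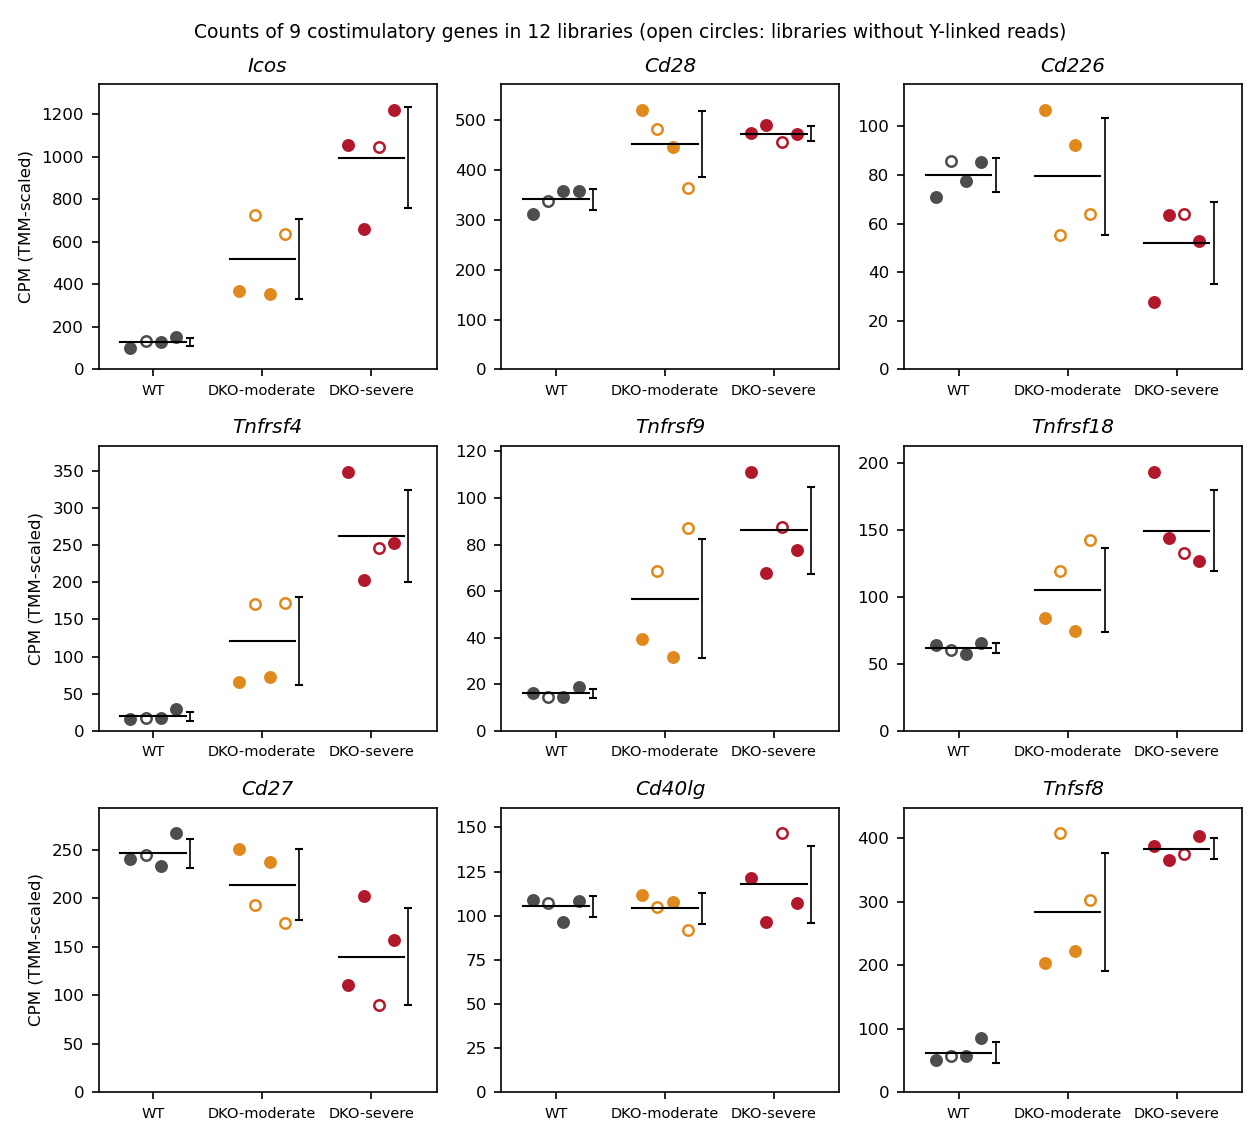
TMM-scaled CPM (linear axis from 0) of each of the 9 genes in the 4 libraries of each group, with the mean as a line and the SD as a bar beside it. Open circles are the 4 libraries without Y-linked reads. *Icos*, *Tnfrsf4*, *Tnfrsf9*, *Tnfrsf18* and *Tnfsf8* sit higher in all 8 DKO libraries than in any WT library, and in DKO-moderate the open circles are above the filled ones for these 5 genes.

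For *Icos*, the inducible receptor, the WT libraries held 102, 131, 129 and 151 CPM. The DKO-moderate libraries held 369, 725.5, 353 and 635.5 CPM, and the DKO-severe libraries 1055, 659, 1046 and 1217 CPM. The lowest DKO library was thus above the highest WT library, while DKO-moderate and DKO-severe overlapped, since DKO-severe 2 lay below DKO-moderate 2. The log2 fold change was 2.95 (SE 0.27, edgeR adjusted p = 9.43e-06) in DKO-severe and 2.02 (SE 0.26, edgeR adjusted p = 0.0005) in DKO-moderate. The DKO groups differed by 0.93 (SE 0.25, edgeR adjusted p = 0.023), which was no longer called without DKO-moderate 1, DKO-moderate 3, DKO-severe 1 or DKO-severe 4 (adjusted p from 0.0542 to 0.0694).

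*Cd28*, the receptor of resting T cells, moved far less. The WT libraries held 312, 338, 357 and 357 CPM, those of DKO-moderate 519, 481, 446 and 363 CPM, and those of DKO-severe 473, 491, 455 and 472 CPM. The WT libraries lay below all DKO libraries, by a small margin in DKO-moderate 4. Its log2 fold change was 0.47 (SE 0.10, edgeR adjusted p = 0.0022) in DKO-severe and 0.41 (SE 0.10, edgeR adjusted p = 0.0172) in DKO-moderate. The difference of the DKO groups was 0.06 with a 95% interval from -0.16 to 0.28. The DKO-moderate call was lost without WT 1 (log2 fold change 0.37, adjusted p = 0.0592) and when libraries were scaled to their summed *Cd3e*, *Cd3d*, *Cd3g* and *Cd247* reads (0.29, adjusted p = 0.136).

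The ratio of *Icos* to *Cd28* reads within a library does not depend on scaling. It ran from 0.327 to 0.424 in WT, from 0.711 to 1.75 in DKO-moderate and from 1.34 to 2.58 in DKO-severe. *Cd28* reads thus outnumbered *Icos* reads in all WT libraries, and *Icos* reads outnumbered *Cd28* reads in all DKO-severe libraries, without regard to gene length. The log2 ratio was higher than in WT by 2.46 in DKO-severe and by 1.56 in DKO-moderate, each with p = 0.029 in a two-sided exact permutation test, the smallest p that 4 libraries against 4 allow. The DKO groups differed by 0.89 (exact permutation p = 0.086) and overlapped. Of the 9 ratio tests made here, 7 reached this smallest exact permutation p, and the Benjamini-Hochberg adjusted value of each is 0.037. The separation of the groups in all 7 follows from the ranges of the separate genes, so these p-values are not separate tests.

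*Tnfrsf4* encodes OX40, and the WT libraries held 15.4, 17.8, 17.2 and 29.1 CPM of it. The DKO-moderate libraries held 66.2, 171, 72.8 and 173 CPM, and the DKO-severe libraries 348, 202, 247 and 252 CPM. The 3 groups did not overlap, and among the 9 genes this was the only one for which that held. On the log2 scale the change was 3.72 (SE 0.36, edgeR adjusted p = 1.3e-05) in DKO-severe and 2.6 (SE 0.35, edgeR adjusted p = 0.00059) in DKO-moderate. The difference between the DKO groups was 1.12 (SE 0.33, edgeR adjusted p = 0.0317), and it was not called without DKO-moderate 1, DKO-moderate 3, DKO-severe 1, DKO-severe 3 or DKO-severe 4 (adjusted p from 0.0542 to 0.0878).

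*Tnfrsf18*, which encodes GITR, lies 9.55 kb downstream of *Tnfrsf4* on the same strand of chromosome 4. Its WT levels were 64.1, 60.4, 57.4 and 65.5 CPM, its DKO-moderate levels 84.6, 119.6, 74.3 and 143 CPM, and its DKO-severe levels 193, 144, 133 and 127 CPM. Neither DKO group overlapped WT, but the DKO groups overlapped each other. The log2 fold change was 1.27 (SE 0.19, edgeR adjusted p = 0.000211) in DKO-severe and 0.77 (SE 0.19, edgeR adjusted p = 0.0173) in DKO-moderate. The DKO-moderate call was lost without WT 2 (adjusted p = 0.0507) or DKO-moderate 2 (adjusted p = 0.0525), and within the libraries with Y-linked reads the value fell to 0.34 (adjusted p = 0.339). The step from DKO-moderate to DKO-severe was 0.50 with an interval from 0.09 to 0.92 (edgeR adjusted p = 0.08).

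*Tnfrsf9*, which encodes CD137, was the scarcest of the 9 genes in WT by CPM and per kb of exon, at 16.2, 14.7, 14.5 and 19.0 CPM. The DKO-moderate libraries had 39.4, 68.8, 31.9 and 87.05 CPM, and the DKO-severe libraries 111, 67.8, 87.7 and 77.6 CPM. Both DKO groups lay above WT and overlapped each other. It rose by 2.42 on the log2 scale (SE 0.29, edgeR adjusted p = 3.97e-05) in DKO-severe and 1.82 (SE 0.28, edgeR adjusted p = 0.00134) in DKO-moderate. From DKO-moderate to DKO-severe the difference was 0.60 with an interval from 0.01 to 1.19 (edgeR adjusted p = 0.131).

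*Cd27*, a TNF receptor that resting T cells already carry, went the other way. The WT libraries held 240.5, 245, 233 and 267 CPM, the DKO-moderate libraries 251, 193, 238 and 175 CPM, and the DKO-severe libraries 111, 202, 89.7 and 157 CPM. All DKO-severe libraries were below WT, and DKO-moderate overlapped both. The log2 fold change in DKO-severe was -0.82 (SE 0.21, edgeR adjusted p = 0.00689). In DKO-moderate it was -0.20 with an interval from -0.66 to 0.26, and between the DKO groups -0.61 (edgeR adjusted p = 0.0597). Without DKO-severe 2 the last comparison passed (log2 fold change -0.81, adjusted p = 0.0105).

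The reads of *Tnfrsf4* relative to those of *Cd27* separated the 3 groups without overlap. The ratio ran from 0.0642 to 0.109 in WT, from 0.263 to 0.989 in DKO-moderate and from 1.0 to 3.15 in DKO-severe. On the log2 scale the ratio was higher by 4.62 in DKO-severe and by 2.72 in DKO-moderate than in WT, and by 1.91 in DKO-severe than in DKO-moderate. Each difference had an exact permutation p of 0.029, two-sided. *Tnfrsf4* alone also separated the 3 groups. In DKO-severe against WT *Tnfrsf4* lay higher and *Cd27* lower, each without overlap. The ratio had to separate there, and the ranges of both genes also fixed the other separations, so these p-values are not separate tests. DKO-moderate 4 and DKO-severe 2 nearly met, at 0.989 and 1.0.

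**Figure D2:**
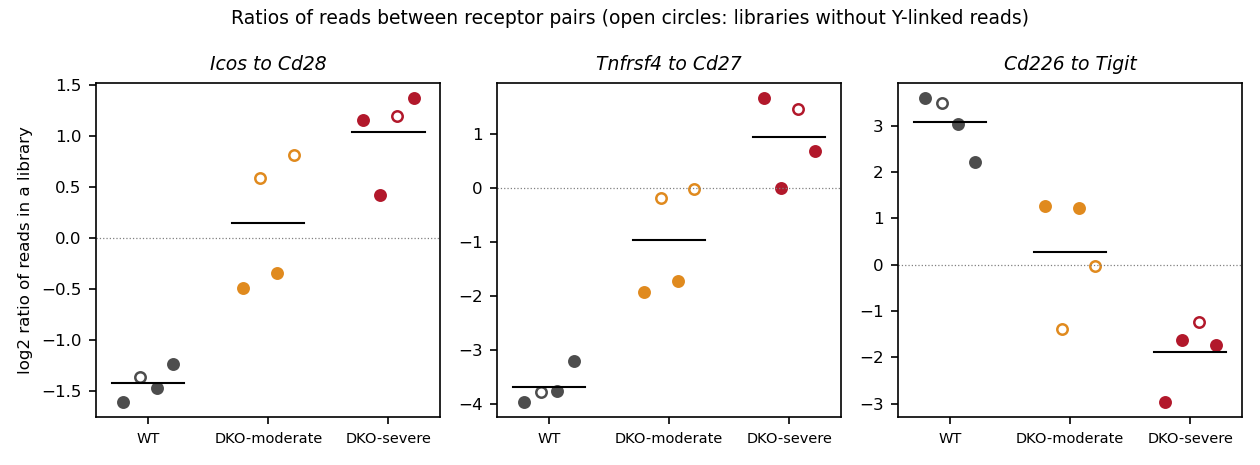
Log2 ratio of reads within each library for *Icos* to *Cd28*, *Tnfrsf4* to *Cd27* and *Cd226* to *Tigit*, with the group mean as a line and a dotted line where both genes have equal reads. Open circles are libraries without Y-linked reads. The *Tnfrsf4* to *Cd27* ratio rises from at most 0.109 in WT to at least 1.0 in DKO-severe on the linear scale, and the *Cd226* to *Tigit* ratio falls from at least 4.65 to at most 0.424.

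*Tnfsf8* encodes CD30 ligand, and its WT levels were 50.6, 56.9, 57.1 and 86.2 CPM. The DKO-moderate levels were 203, 407, 223 and 303 CPM, and the DKO-severe levels 388, 366, 374 and 403 CPM. The DKO-severe libraries lay close together, with a coefficient of variation of 4.29% against 32.7% in DKO-moderate, and DKO-moderate 2 was above all of them. The log2 change against WT was 2.61 (SE 0.22, edgeR adjusted p = 7.33e-06) in DKO-severe and 2.18 (SE 0.22, edgeR adjusted p = 0.000149) in DKO-moderate. The difference between the DKO groups was 0.43 with an interval from -0.03 to 0.89.

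*Cd40lg* encodes the ligand through which helper T cells drive B cells. The WT libraries held 109, 107, 96.6 and 108 CPM, the DKO-moderate libraries 112, 105, 108 and 91.7 CPM, and the DKO-severe libraries 122, 96.3, 147 and 107 CPM. The groups overlapped in every comparison. The log2 fold change was 0.16 with an interval from -0.09 to 0.42 in DKO-severe, -0.01 with an interval from -0.27 to 0.24 in DKO-moderate, and 0.18 with an interval from -0.08 to 0.43 between the DKO groups. The upper bounds correspond to 1.34-fold, 1.18-fold and 1.35-fold. Scaling by library size alone, under which the median of all tested genes moved to 0.178, gave 0.35 on the log2 scale in DKO-severe, which passed (adjusted p = 0.0192).

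*Cd226*, which encodes DNAM-1, an activating receptor for the ligands CD155 and CD112, had WT levels of 71.0, 85.7, 77.5 and 85.5 CPM. The DKO-moderate levels were 107, 55.1, 92.3 and 64.0 CPM, and the DKO-severe levels 27.9, 63.6, 63.9 and 52.9 CPM. The DKO-severe libraries were all below WT, but the log2 fold change of -0.62 (SE 0.25) had an edgeR adjusted p of 0.0562 and an interval from -1.17 to -0.07. In limma voom it passed (-0.67, adjusted p = 0.0179), as it did in edgeR without DKO-moderate 1 (adjusted p = 0.0473) or DKO-moderate 2 (adjusted p = 0.0462). With terms for neutrophil and B cell genes in the fit the direction turned, to 0.31 (adjusted p = 0.601). In DKO-moderate the value was -0.01 with an interval from -0.55 to 0.54.

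TIGIT competes with CD226 for the ligands CD155 and CD112, and CD96 competes for CD155. *Tigit* rose from 10.4 ± 5.55 CPM (SD, n = 4) in WT to 73.1 ± 48.2 CPM in DKO-moderate (log2 fold change 2.82, edgeR adjusted p = 0.00139) and 185 ± 29.1 CPM in DKO-severe (4.16, edgeR adjusted p = 2.77e-05). *Cd96* fell from 200 ± 13.6 CPM in WT to 45.9 ± 19.4 CPM in DKO-severe (log2 fold change -2.12, edgeR adjusted p = 0.000205) and stood at 129 ± 37.9 CPM in DKO-moderate (edgeR adjusted p = 0.179). The ratio of *Cd226* to *Tigit* reads was 4.65 to 12.1 in WT, 0.385 to 2.41 in DKO-moderate and 0.127 to 0.424 in DKO-severe. On the log2 scale it differed from WT by -4.97 in DKO-severe and by -2.81 in DKO-moderate, each with an exact permutation p of 0.029, two-sided. In DKO-severe *Cd226* lay below WT and *Tigit* above it, each without overlap, so the ratio had to separate there. The ranges of both genes fixed its separation in DKO-moderate against WT as well. The DKO groups differed by -2.16 (exact permutation p = 0.057). DKO-moderate 2 lay within the range of DKO-severe.

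**Figure D3:**
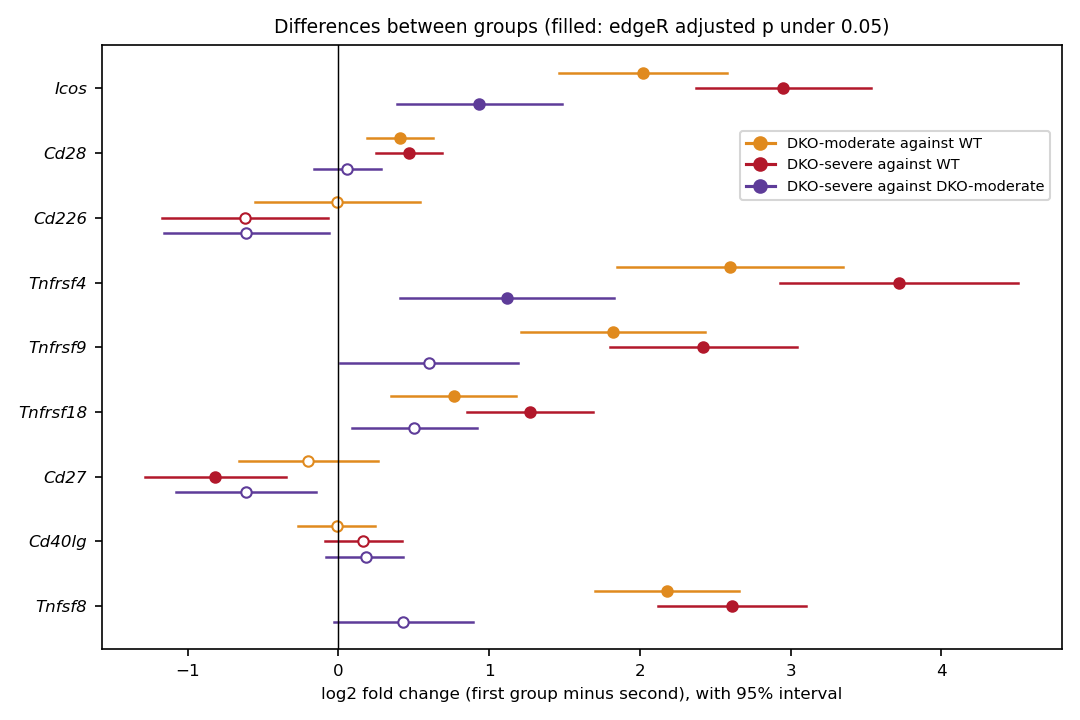
Log2 fold change (x axis) with its 95% interval for each gene in DKO-moderate against WT (orange), DKO-severe against WT (red) and DKO-severe against DKO-moderate (purple), where filled points passed an edgeR adjusted p of 0.05. The values against WT reach 3.72 for *Tnfrsf4*, *Cd40lg* stays around 0 in all 3 comparisons, and *Cd27* in DKO-severe is the only call below 0, at -0.82.

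Per kb of exon the order of the 9 genes changed between the groups. In WT the 3 highest were *Cd27* at 105.8 ± 6.28 CPM per kb (SD, n = 4), *Cd40lg* at 84.2 ± 4.69 and *Cd28* at 55.7 ± 3.47, and none of these overlapped its neighbour in the order. *Tnfrsf18* (40.6 ± 2.43) and *Icos* (37.5 ± 5.92) followed and overlapped each other, then *Tnfsf8*, *Cd226* and *Tnfrsf4* between 14.6 and 16.5 CPM per kb, each overlapping the next, and *Tnfrsf9* was last at 5.91 ± 0.758. In DKO-severe *Icos* was first at 289.8 ± 69.1 CPM per kb and *Tnfrsf4* second at 192 ± 45.1, with overlap between them and none with the third, *Tnfsf8*, at 100.5 ± 4.31. *Cd27* had moved to the seventh place at 60.1 ± 21.6 CPM per kb, and *Cd226* was last at 10.6 ± 3.46. In DKO-moderate *Icos* led at 151.8 ± 54.9 CPM per kb, and the first 6 genes each overlapped the next.

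**Figure D4:**
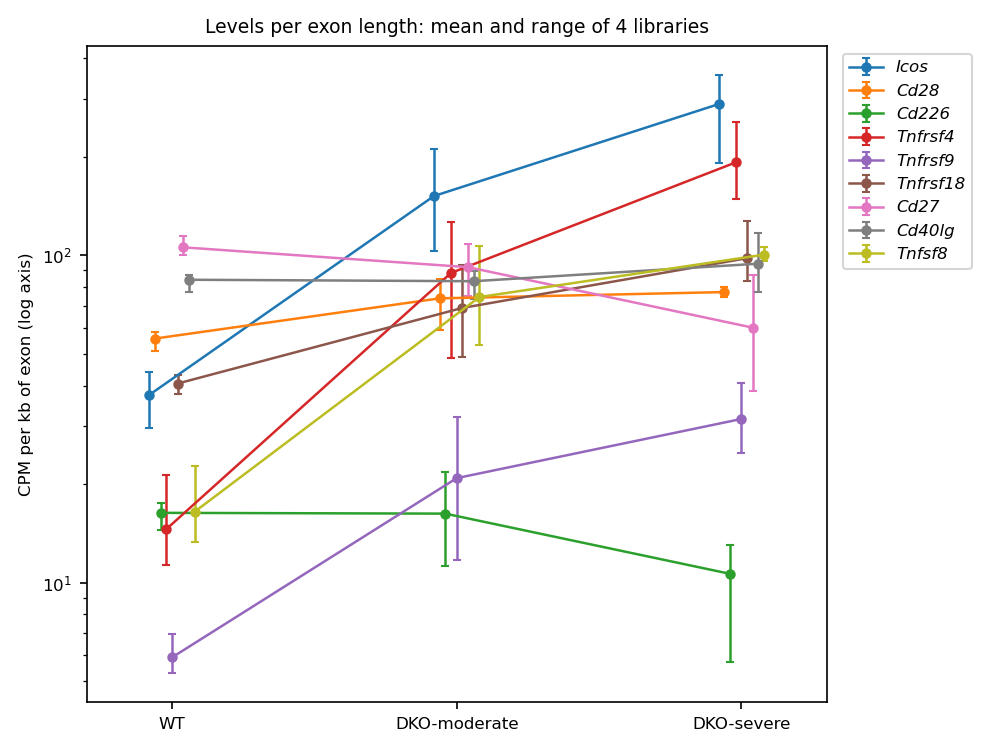
CPM per kb of exon (log axis) of the 9 genes in WT, DKO-moderate and DKO-severe, with points at the mean and bars over the range of 4 libraries. *Icos* climbs from the fifth to the first place and *Tnfrsf4* from the eighth to the second between WT and DKO-severe, while *Cd27* moves from the first to the seventh.

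Within DKO-moderate the libraries fell into the same pairs for 8 of the 9 genes. DKO-moderate 2 and DKO-moderate 4, which lack Y-linked reads, were above DKO-moderate 1 and DKO-moderate 3 for *Tnfrsf4* (2.47 times the mean of the other pair), *Tnfrsf9* (2.19 times), *Icos* (1.89 times), *Tnfsf8* (1.67 times) and *Tnfrsf18* (1.65 times). They were below for *Cd226* (0.599 times), *Cd27* (0.751 times) and *Cd40lg* (0.895 times), and for *Cd28* the pairs overlapped (0.875 times). With 2 libraries a pair this was not tested. The share of all tested genes that split into the same pairs was not counted, so the 8 of 9 has no background here. In WT 2 and DKO-severe 3, the other libraries without Y-linked reads, *Icos*, *Tnfrsf4*, *Tnfrsf9*, *Tnfrsf18* and *Tnfsf8* lay within the range of the other libraries of their group. The remaining members did not all do so. DKO-severe 3 was the lowest of its group for *Cd27* (89.72 CPM) and *Cd28* (455.2 CPM). It was the highest for *Cd40lg* (146.6 CPM) and, by a small margin, *Cd226* (63.87 CPM). WT 2 was the highest of its group for *Cd226* (85.66 CPM), also by a small margin. The same pairs appeared in the summed level of 8 Tfh genes (*Il21*, *Bcl6* and *Cxcr5* among them), at 1320 and 1150 CPM in DKO-moderate 2 and 4 and at most 716 CPM in DKO-moderate 1 and 3. That sum ran from 125 to 293 CPM in WT and from 1380 to 1890 CPM in DKO-severe, and its part in the values of the 9 genes was not tested.

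Using only the 8 libraries with Y-linked reads, a choice made after seeing the data, 7 of the 9 genes passed in DKO-severe against WT, as with all libraries. In DKO-moderate against WT, 5 passed, and the log2 fold changes were smaller for *Icos* (1.49) and *Tnfrsf4* (1.75). From DKO-moderate to DKO-severe 6 passed in place of 2, namely *Icos* (1.48), *Tnfrsf4* (1.98), *Tnfrsf9* (1.30), *Tnfrsf18* (1.0), *Tnfsf8* (0.90) and *Cd226* (-1.0), all in edgeR with adjusted p between 0.0106 and 0.046. Over all 15552 genes tested in these libraries, 7244, 386 and 3298 were called in the 3 comparisons, in the order given here. These fits rest on 3 WT, 2 DKO-moderate and 3 DKO-severe libraries.

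The neutrophil, B cell and other non-T cell reads of the DKO-severe libraries moved with the group. All 10 neutrophil genes were called higher in DKO-severe than in WT, 1 of 9 B cell genes, 4 of 7 monocyte and macrophage genes, 3 of 6 plasma cell genes and 1 of 6 dendritic cell genes. Without WT 3, DKO-severe 1 and DKO-severe 2, which hold the most neutrophil or B cell reads of their group, the same number of members passed in each comparison (7, 6 and 2). Of all 15497 genes tested in that fit, 6679, 2562 and 2055 were called. In DKO-severe against WT the log2 fold changes were then 3.14 for *Icos*, 3.59 for *Tnfrsf4*, 1.04 for *Tnfrsf18* and -1.02 for *Cd27*. Between the DKO groups *Cd27* then passed (-0.79, adjusted p = 0.0474) and *Tnfrsf4* did not (1.05, adjusted p = 0.113). With the mean levels of the neutrophil and B cell genes as terms in the fit, 4 members passed in DKO-severe against WT: *Icos* (2.83), *Tnfrsf4* (2.94), *Tnfrsf9* (1.74) and *Tnfsf8* (2.3). *Cd28* (0.50, adjusted p = 0.11), *Cd27* (-0.74, adjusted p = 0.26) and *Tnfrsf18* (0.54, adjusted p = 0.157) did not, and the calls over all genes fell from 8428 to 2711.

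Markers of T cell states also differed between the groups. Of 7 naive T cell genes 6 fell in DKO-severe, with *Lef1* at a log2 fold change of -2.39 (edgeR adjusted p = 1.65e-05) and *Ccr7* at -1.94 (edgeR adjusted p = 4.68e-06), and 3 fell in DKO-moderate. All 8 Tfh genes rose in DKO-severe and 7 in DKO-moderate, with *Il21* at 5.06 (edgeR adjusted p = 1.63e-05) in DKO-severe. Of 6 activation genes 4 rose in both, including *Il2ra* (3.04 in DKO-severe, edgeR adjusted p = 7.13e-06) and the proliferation gene *Mki67* (3.23, edgeR adjusted p = 1.22e-05), while the early activation gene *Cd69* fell in DKO-severe (-0.74, edgeR adjusted p = 0.0445). Tregs are known for high GITR, OX40 and ICOS, and of 7 Treg genes *Ikzf2*, *Nrp1*, *Il2ra* and *Ctla4* rose in DKO-severe whereas *Foxp3* (-2.10, edgeR adjusted p = 0.0205) and *Ikzf4* (-0.77, edgeR adjusted p = 0.00696) fell. The part of these cell states in the values of the 9 genes was not tested.

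Ligands and receptors that bind the members were counted in the same libraries, and which cells held their reads was not measured. Of 11 such genes 10 were tested, and 7 rose and 1 fell in DKO-severe, where 26.6% of all tested genes rose and 25.9% fell. Their median log2 fold change was 3.52. *Tnfsf4*, the ligand of OX40, averaged 0.656 ± 0.342 CPM (SD, n = 4) in the WT libraries, 5.77 ± 1.24 CPM in DKO-moderate and 7.2 ± 0.540 CPM in DKO-severe. *Tnfsf9*, the ligand of *Tnfrsf9*, was at 1.55 ± 0.0863, 7.91 ± 1.79 and 18.7 ± 4.48 CPM. Both rose in both DKO groups, and their log2 fold changes in DKO-severe were 3.45 for *Tnfsf4* (edgeR adjusted p = 2.16e-05) and 3.60 for *Tnfsf9* (edgeR adjusted p = 3.27e-06).

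*Tnfrsf8*, which encodes CD30, the receptor for the product of *Tnfsf8*, was at 0.402 to 0.902 CPM in WT, 1.27 to 3.31 CPM in DKO-moderate and 43.0, 4.38, 42.6 and 67.7 CPM in the 4 DKO-severe libraries. DKO-severe 2 thus lay near DKO-moderate. Its log2 fold change in DKO-severe was 6.0 (edgeR adjusted p = 4.51e-05), and against DKO-moderate 4.03 (edgeR adjusted p = 0.00382). *Cd80*, a ligand of CD28 best known from antigen-presenting cells, was at 0.0862 to 0.465 CPM in WT and 0.372 to 1.17 CPM in DKO-moderate. In DKO-severe it was at 7.95, 6.18, 13.6 and 11.9 CPM. The summed dendritic cell genes were also higher in DKO-severe (11.5 to 18.7 CPM) than in WT (0.776 to 10.3 CPM) and DKO-moderate (1.54 to 2.91 CPM). Which cells held the *Cd80* reads was not tested. *Icosl*, the ligand of ICOS, was highest at 29.5 and 26.3 CPM in DKO-severe 1 and 2 and at 21.04 CPM in WT 3, and passed in DKO-severe (log2 fold change 0.63, edgeR adjusted p = 0.0292).

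*Cd70*, the ligand of CD27, was near the detection limit in WT (at most 0.0862 CPM) and at 0.457 to 3.60 CPM in DKO-severe, and it was called higher in both DKO groups (edgeR adjusted p = 0.000836 in DKO-severe and 0.046 in DKO-moderate). Of the ligands of CD226, CD112 (listed as *Pvrl2*) rose from at most 0.0645 CPM in WT to between 1.61 and 6.43 CPM in DKO-severe, and *Pvr*, which encodes CD155, fell from 64.3 ± 1.1 to 23.4 ± 4.72 CPM (log2 fold change -1.46, edgeR adjusted p = 1.15e-05). *Cd86* and *Cd40* did not pass in DKO-severe (-0.71, adjusted p = 0.115, and 0.75, adjusted p = 0.661), with *Cd40* above 1 CPM only in WT 3, DKO-severe 1 and DKO-severe 2. *Tnfsf18*, the ligand of GITR, was too scarce to be tested. *Ctla4*, which shares the ligands of CD28 and lies 62095 bases from *Icos*, rose from 33.3 ± 8.67 CPM to 150.2 ± 64.8 CPM in DKO-moderate and 263 ± 60.4 CPM in DKO-severe.

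Of 14 genes that carry the signal of CD28 and ICOS, 7 fell and 3 rose in DKO-severe, beside 25.9% lower and 26.6% higher among all tested genes. Their median log2 fold change was -0.29, against -0.01 over all tested genes, and the difference in direction was not tested. The adaptor *Grap2* fell from 383 ± 6.09 to 73.5 ± 23.7 CPM (log2 fold change -2.38, edgeR adjusted p = 6.54e-05) and *Pik3r1*, the regulatory subunit of phosphoinositide 3-kinase, from 244 ± 42.8 to 84.8 ± 28.5 CPM (-1.52, edgeR adjusted p = 0.000905). *Pik3cd*, *Prkcq*, *Vav1*, *Lck* and *Grb2* fell by smaller amounts, from -0.84 to -0.35. The 3 that rose were *Malt1* (0.86, edgeR adjusted p = 0.00532), *Akt1* (0.65, edgeR adjusted p = 8.49e-05) and *Pik3ca* (0.30, edgeR adjusted p = 0.0098). In DKO-moderate *Grap2* (-1.06) fell and *Malt1* (0.76) and *Akt1* (0.30) rose.

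Of 12 genes of TNF receptor signaling, 5 fell and 2 rose in DKO-severe, beside 25.9% of all tested genes called lower and 26.6% called higher. *Traf5*, an adaptor of OX40 and CD27, fell from 40.1 ± 2.07 to 10.95 ± 4.43 CPM (log2 fold change -1.87, edgeR adjusted p = 0.000108), and *Map3k14*, the NF-kappaB-inducing kinase, from 92.3 ± 2.20 to 45.3 ± 4.19 CPM (-1.03, edgeR adjusted p = 0.000105). *Birc2* (-0.71), *Traf6* (-0.56) and *Tbk1* (-0.43) also fell. The noncanonical NF-kappaB genes *Nfkb2* (0.99, edgeR adjusted p = 9.69e-05) and *Relb* (0.70, edgeR adjusted p = 0.00423) rose, and *Traf1*, *Traf2*, *Traf3*, *Birc3* and *Siva1* did not pass. The median of the 12 was -0.10. In DKO-moderate *Map3k14* (-0.61) and *Birc2* (-0.39) fell and no gene of this list rose.

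The RNA-binding proteins Roquin-1 (*Rc3h1*), Roquin-2 (*Rc3h2*) and Regnase-1 (*Zc3h12a*) are known to repress *Icos* and *Tnfrsf4* mRNA. *Zc3h12a* was at 41.8 ± 7.77 CPM in WT, 30.3 ± 3.16 CPM in DKO-moderate and 32.0 ± 2.42 CPM in DKO-severe, and fell in both (log2 fold changes -0.46, edgeR adjusted p = 0.0276, and -0.39, edgeR adjusted p = 0.0237), although single libraries overlapped. *Rc3h1* and *Rc3h2* did not pass in either group.

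Among 13 other TNF family genes of T cells, 5 rose and 4 fell in DKO-severe, with a median log2 fold change of 0.27, where 52.6% of all tested genes were called. *Tnfrsf1b*, which encodes the second TNF receptor, rose from 102 ± 13.9 to 412 ± 66.5 CPM (2.01, edgeR adjusted p = 5.4e-06), *Tnfsf11* from 25.4 ± 6.23 to 93.5 ± 20 CPM (1.88, edgeR adjusted p = 5.81e-05) and *Tnfsf14* from 21.3 ± 6.74 to 66.9 ± 9.82 CPM (1.65, edgeR adjusted p = 5.6e-05), and *Tnfsf10* and *Tnfrsf25* also rose. *Ltb* (-1.27), *Tnfrsf1a* (-1.20), *Fas* (-0.77) and *Lta* (-0.65) fell. *Tnfsf11* (1.62), *Tnfsf14* (1.43) and *Tnfrsf1b* (0.54) rose in DKO-moderate too, where *Tnfrsf1a* (-0.60) and *Ltb* (-0.52) fell.

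**Figure D5:**
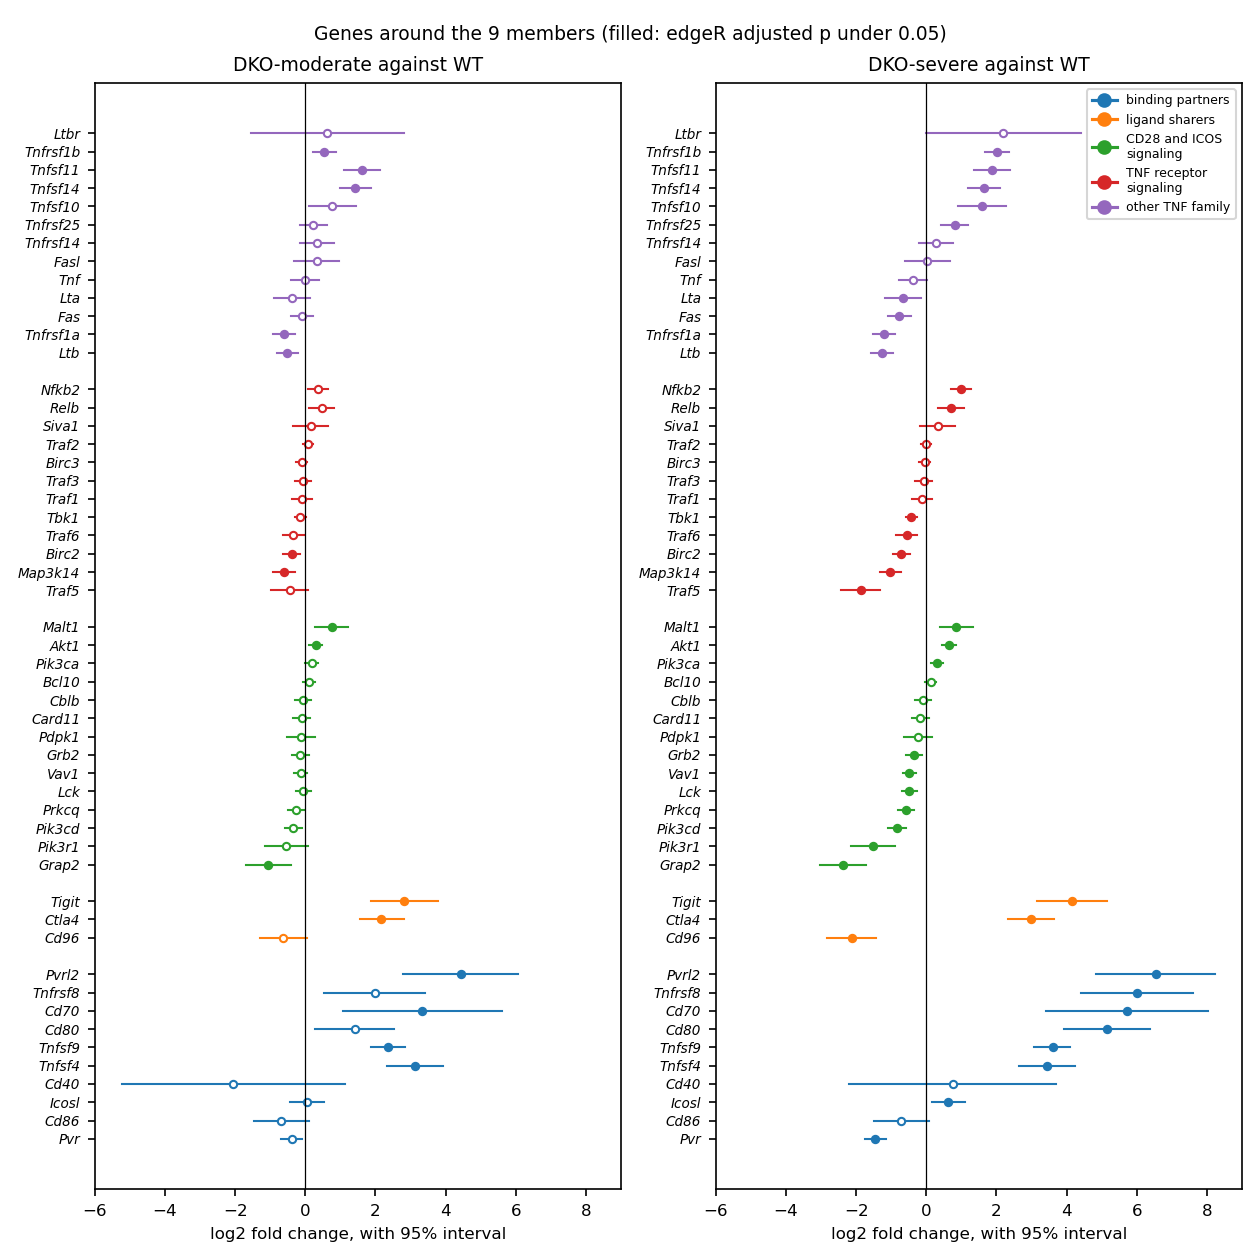
Log2 fold change with its 95% interval of the tested genes around the members, by list (colours), in DKO-moderate against WT (left) and DKO-severe against WT (right), where filled points passed an edgeR adjusted p of 0.05. In DKO-severe 7 of 10 binding partners lie above 0 and filled, and 7 of 14 CD28 and ICOS signaling genes lie below 0 and filled.

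The members lie on chromosomes 1, 4, 6, 18 and X (coordinates of build GRCm38). *Cd28* (chr1:60716800-60773359) and *Icos* (chr1:60977927-61000320) are 205 kb apart on the plus strand. *Tnfsf8* (chr4:63831308-63861347, minus strand), *Tnfrsf9* (chr4:150914562-150946102), *Tnfrsf4* (chr4:156013843-156016612) and *Tnfrsf18* (chr4:156026164-156028895, the last 3 on the plus strand) are on chromosome 4. *Cd27* is at chr6:125232622-125237010 on the minus strand, *Cd40lg* at chrX:57212143-57224042 on the plus strand, and *Cd226* on chromosome 18. Within 100 kb of a member, 24 protein-coding genes that are not members were tested, of which 8 rose and 7 fell in DKO-severe and 4 rose in DKO-moderate, beside the 52.6% and 17.1% called over all tested genes.

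*Sdf4*, which ends 233 bases upstream of *Tnfrsf4* on the same strand, rose from 321 ± 11.6 to 682 ± 124 CPM in DKO-severe (log2 fold change 1.08, edgeR adjusted p = 0.000393) and was at 464 ± 129 CPM in DKO-moderate (0.53, adjusted p = 0.0618). *Park7*, 125 bases from the annotated *Tnfrsf9* gene on the opposite strand, fell by 0.51 on the log2 scale in DKO-severe (edgeR adjusted p = 0.0045). That gene start lies upstream of both RefSeq start sites of *Tnfrsf9* described above. *Vamp1* overlaps *Cd27* on the opposite strand and was at 38.4 ± 7.91 CPM in WT and 24.4 ± 9.17 CPM in DKO-severe (log2 fold change -0.66, edgeR adjusted p = 0.028). Its reads and those of *Cd27* were kept apart by strand in the counting.

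The genes whose levels followed each member most closely over the 12 libraries were found by Pearson's r on log2 CPM among tested genes with a mean of at least 5 CPM, as a description over libraries that share their groups. *Icos* was followed by *Hif1a* (r = 0.995) and *Slc25a13* (r = 0.994), *Tnfrsf4* by *Maf* (0.993), a factor of Tfh cells, and *Ccdc28b* (0.992), *Tnfsf8* by *Kdelc2* (0.997) and *Flrt2* (0.997), and *Tnfrsf9* by *Capns1* (0.994) and *Bcl2a1d* (0.992). For *Tnfrsf18* these were *Cgrrf1* (0.977) and *Vps29* (0.975), for *Cd28* *Hiat1* (0.962) and *Lancl3* (0.954), for *Cd226* *Gab3* (0.948) and *Sec24c* (0.938), for *Cd27* *Slc39a10* (0.944) and *Mpp1* (0.935), and for *Cd40lg* *Rarg* (0.907) and *Mpp7* (0.898). *Hif1a*, the oxygen-sensing factor, had log2 fold changes of 2.86 and 1.84 in DKO-severe and DKO-moderate against WT, beside 2.95 and 2.02 for *Icos*. Among the members, *Icos*, *Tnfrsf4*, *Tnfrsf9*, *Tnfrsf18* and *Tnfsf8* had pairwise r from 0.90 to 0.99, and from 0.55 to 0.93 once the group means were removed. *Cd40lg* stayed between -0.65 and 0.30 with every other member.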

How the data were processed

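Per the labels and the study's methods, the authors made directional libraries from total RNA, aligned reads to mm10 with STAR 2.7.11 and counted them per gene and strand with HTSeq. The deposited values are raw read counts, 1 table per library (12 in all). The annotation behind the counts is not given in the sources used here.

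A gene was tested where its reads in 1 condition summed to 10 or more (16035 of 26608), and all were fitted together for the 3 groups with edgeR 4.0.16 in R 4.3.3 (TMM, quasi-likelihood test, Benjamini-Hochberg adjustment, threshold 0.05). CPM used TMM factors, with a prior count of 2 before taking log2. SE is the log2 fold change divided by the square root of F, and intervals are 95%. Read ratios within a library were compared by exact permutation tests (scipy 1.17.1), with adjustment over 9 tests. Exon lengths, coordinates and neighbours come from GENCODE on GRCm38 (22424 genes matched by symbol, 2051 by an older one), promoters from RefSeq.

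No 2 libraries of a group were copies (chi-square per degree of freedom at least 22.9). Alternatives were DESeq2 1.42.0, limma voom 3.58.1, other scalings, filters, terms, thresholds and single libraries left out. Named genes were the members, the listed genes, tested coding neighbours and the 2 genes with the highest r. Some listed genes are not reported here. The members and lists were chosen with earlier results of these data known. The fit was tested on simulated data.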

Additional observations from a re-analysis of the deposited data

Results flagged for a closer look

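*Cd40lg* in WT 3 stood apart from its group. It was at 96.6 CPM there, below 107 to 109 CPM in the other WT libraries, and this gap made up more of the range of the group than Dixon's 95% critical value for 4 libraries. WT 3 is also the WT library with the highest summed B cell genes (216 CPM), and the part of those reads in the lower value was not tested. The same check was made on 36 sets of 4 libraries (9 genes and 3 ratios in 3 groups) and singled out 1, where chance picks out about 1 in 20.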

How the results depend on the processing

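The number of members past the threshold in DKO-severe against WT (7) was 5 to 8 under all alternatives except terms for neutrophil and B cell genes, with 4, and was 7 to 8 with any 1 library left out. For DKO-severe against WT the calls over all 16035 tested genes ran from 2711 (with those terms) to 9760 (limma voom), beside 8428. In DKO-moderate against WT (6) the number of members was 4 to 6. Calls over all genes there ran from 386 of 15552 (libraries with Y-linked reads) to 3911 of 16035 (DESeq2). Between the DKO groups (2) it moved: 4 when scaled to Cd3 reads, 7 in limma voom, 3 in DESeq2, 0 with only the groups compared, 4 with a term for Y-linked genes, 0 with terms for neutrophil and B cell genes, 0 at an adjusted p under 0.01, 1 where the log2 fold change also had to reach 1 in size, 6 in libraries with Y-linked reads, and 0 to 4 with 1 library left out (0 without DKO-moderate 1, DKO-moderate 3, DKO-severe 1 or DKO-severe 4, 1 without DKO-severe 3, 4 without DKO-moderate 4). Calls over all 16035 tested genes between the DKO groups moved too, from 3217 to 6126 in limma voom and 4152 in DESeq2. They were 3209 when scaled to Cd3 reads, 3183 with a term for Y-linked genes and 155 with terms for neutrophil and B cell genes. With only the groups compared they were 2201 of 15852. Without 1 library they ran from 1646 of 15974 (DKO-moderate 1) to 3670 of 15971 (DKO-moderate 4). The cause of these shifts was not tested.

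Replicate numbers did not pair the libraries (deviations of same-numbered libraries from their group means had r from -0.272 to 0.208), and the replicate block changed no call of a member. For the ratios at the smallest exact permutation p, the block of same-numbered libraries leaves the mean difference as it is by arithmetic (log2 differences 2.46 and 1.56 for *Icos* to *Cd28*, 4.62, 2.72 and 1.91 for *Tnfrsf4* to *Cd27*, and -4.97 and -2.81 for *Cd226* to *Tigit*), and 4 pairs cannot give p below 0.125, so it says nothing about stability. With 1 library left out these ranged, in the same order, from 2.35 to 2.66, 1.34 to 1.77, 4.39 to 4.94, 2.40 to 3.04, 1.58 to 2.22, -5.26 to -4.61 and -3.14 to -2.26, where 4 libraries against 3 cannot give p below 0.057. Calls over all genes between the DKO groups ranged from 155 (terms for neutrophil and B cell genes) to 6126 (limma voom), beside 3217, and in DKO-moderate against WT they were 386 in the libraries with Y-linked reads, beside 2734. Scaling moved the share of calls that were higher: library size alone gave 66.5% in place of 50.7% in DKO-severe against WT, and Cd3 reads gave 50.7% in place of 72.2% in DKO-moderate against WT and 81.5% in place of 46.9% between the DKO groups.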

Other observations

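A noncoding RNA listed as *Gm14718* lies 7765 bases upstream of *Cd40lg* on the same strand and was chosen after its values were seen. Its mean was 4.07 ± 0.675 CPM (SD, n = 4) in the WT libraries, 8.72 ± 4.60 CPM in DKO-moderate and 22.8 ± 23.1 CPM in DKO-severe. On the log2 scale the change was 2.49 in DKO-severe (SE 0.59, edgeR adjusted p = 0.00389) and 1.1 in DKO-moderate (edgeR adjusted p = 0.203). The DKO-severe libraries held 14.5, 9.65, 57.2 and 9.67 CPM and lay above all WT libraries, and without DKO-severe 3 the change was 1.5 (edgeR adjusted p = 0.00693). *Cd40lg* itself overlapped between the groups. *Gm14718* was the only one of 6 tested noncoding neighbours called in DKO-severe.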
